A study of Mus musculus with 24 samples.

Results

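The cathepsins are peptidases of the lysosome, the acidic compartment in which a cell digests proteins. The 10 cathepsin genes described here are Ctsa, Ctsb, Ctsc, Ctsd, Ctse, Ctsf, Ctsh, Ctsl, Ctss and Ctsz, taken by gene name from the gene tables of brain tissue from mice with an induced Polr3a mutation and from wild types. They are 10 of the 54532 genes listed, and each name occurs in the table of each age. For description they were split by general knowledge of their expression into 5 myeloid-enriched members (Ctsc, Ctse, Ctsh, Ctss and Ctsz) and 5 broadly expressed members (Ctsa, Ctsb, Ctsd, Ctsf and Ctsl). The class names rest on that knowledge and were not tested against these data, and the split was made with earlier results of these data known.

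The 24 libraries of polyA-selected RNA form 6 groups of 4, all from C57BL/6J mice given tamoxifen at postnatal day 28 (P28), wild types included. The groups are Polr3a mutant and wild type cerebrum at P42, Polr3a mutant and wild type cerebellum at P42, and Polr3a mutant and wild type cerebrum at P75, that is 14 and 47 days after induction. Polr3a codes for a catalytic subunit of RNA polymerase III, the enzyme that transcribes transfer RNAs. The labels name neither the driver of recombination nor the cells it acts in, do not say whether wild types carried a Cre transgene, and do not say whether each library is a separate animal or whether a cerebrum and a cerebellum share an animal. P-values therefore measure the spread between libraries. Every group at P42 was 2 males and 2 females, except wild type cerebellum with 3 males and 1 female, and at P75 every library was male.

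Cathepsins are made as inactive precursors, marked in the Golgi with mannose phosphate, carried to the lysosome by sorting receptors and activated there by removal of a propeptide. Most are cysteine proteases, while cathepsins D and E are aspartic proteases and cathepsin A is a serine carboxypeptidase. In the brain, neurons depend on cathepsins for protein turnover, and microglia, the resident macrophages, carry a large set of them for digestion of engulfed material and for antigen processing. Cathepsin S trims the invariant chain from major histocompatibility complex (MHC) class II molecules, and cathepsin C activates granule serine proteases.

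Promoter sequences show how the members differ in the motifs near their start sites, and those that held a searched motif are printed. RefSeq promoters (GRCm38.p6, the same assembly as mm10) matched 7 of the 10 members, with 8 promoters because Ctsa has 2. Windows from 250 bases before to 50 bases after the start site were searched on both strands for 4 motifs. These were the core of the interferon-stimulated response element (GAAANNGAA), the gamma-activated site (TTCNNNGAA), the core of the lysosomal CLEAR element bound by TFEB (TCACGTGA) and the core of a site for PU.1, the myeloid factor encoded by Spi1 (GAGGAAGT, or ACTTCCTC on the other strand). Of 32851 mouse promoters of the same length, 8.56%, 8.30%, 0.974% and 3.20% held these, in that order. Each sequence below runs 5′ to 3′ on the gene's strand from 240 bases before to 30 after the start, with matches in capitals.
Ctss promoter, chr3:95526546-95526815, plus strand: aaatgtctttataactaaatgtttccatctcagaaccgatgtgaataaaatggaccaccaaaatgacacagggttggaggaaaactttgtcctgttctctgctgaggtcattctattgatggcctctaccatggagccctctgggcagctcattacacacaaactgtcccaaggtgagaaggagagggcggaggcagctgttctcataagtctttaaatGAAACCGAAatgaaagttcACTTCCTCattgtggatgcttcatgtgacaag
Ctsc promoter, chr7:88277845-88278114, plus strand: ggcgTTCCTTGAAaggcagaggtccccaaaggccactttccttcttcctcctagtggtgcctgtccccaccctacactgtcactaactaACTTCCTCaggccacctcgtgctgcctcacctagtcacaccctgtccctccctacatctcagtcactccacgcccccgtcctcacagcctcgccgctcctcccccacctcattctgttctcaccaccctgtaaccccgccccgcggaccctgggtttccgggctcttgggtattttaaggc
Ctsa promoter, chr2:164833533-164833802, plus strand: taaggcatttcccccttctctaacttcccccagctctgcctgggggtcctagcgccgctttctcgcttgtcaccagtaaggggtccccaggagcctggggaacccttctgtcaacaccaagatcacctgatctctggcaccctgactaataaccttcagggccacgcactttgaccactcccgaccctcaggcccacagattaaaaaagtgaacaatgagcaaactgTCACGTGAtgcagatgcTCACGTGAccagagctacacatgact
Ctsd promoter, chr7:142387798-142388067, minus strand: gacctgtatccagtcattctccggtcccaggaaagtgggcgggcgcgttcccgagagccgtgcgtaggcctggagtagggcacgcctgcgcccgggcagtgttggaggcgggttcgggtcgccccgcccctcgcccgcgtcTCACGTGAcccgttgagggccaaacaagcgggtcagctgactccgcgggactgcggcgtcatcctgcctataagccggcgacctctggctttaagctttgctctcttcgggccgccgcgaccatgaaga
The Ctss promoter held an interferon-type match, GAAACCGAA, that begins 21 bases before the start site, and a PU.1 core that begins 2 bases before it. The Ctsc promoter held a gamma-activated site that begins 236 bases before its start and a PU.1 core that begins 151 bases before it. CLEAR cores were found in Ctsa and Ctsd, both broadly expressed members. The downstream promoter of Ctsa held a pair, at 13 bases before and 4 bases after its start, and Ctsd held a CLEAR core 99 bases before its start. The other 4 promoters, of Ctsf, Ctsl, Ctsz and the upstream promoter of Ctsa, held none of the 4 letter patterns. Ctsb, Ctse and Ctsh had no matched promoter, so the classes were not compared. A match describes the letters and is not evidence of binding.

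Library totals ranged from 13.8 to 23.2 (in units of 1000000 counts). Polr3a itself did not separate the genotypes: in cerebrum at P75 it spanned 30.01 to 33.1 counts per 1000000 (CPM, after TMM scaling of library totals within each tissue and age) in mutants and 30.4 to 37.8 CPM in wild types (log2 fold change -0.10 ± 0.09 SE, adjusted p = 0.542 by edgeR's quasi-likelihood test with Benjamini-Hochberg adjustment, used throughout). Esr1, a gene known from earlier work on these tables to tell the labels apart, spanned 61.8 to 131.9 CPM in P75 mutants and 5.03 to 6.80 CPM in P75 wild types, and all mutants lay above all wild types in the other tissue and age as well. Because Esr1 was picked for this separation in the same data, it is not an independent check of the labels. Neurons, astrocytes, oligodendrocytes and endothelial cells were each represented by all 8 of 8 marker genes among the genes tested in every comparison of genotypes.

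Per length, cathepsin B and cathepsin D transcripts were the most abundant members in wild type brain. In wild type cerebrum at P75, Ctsb had 93.6 ± 2.12 CPM per kilobase (SD, n = 4, as for all levels) and Ctsd 84.1 ± 4.24 CPM per kilobase. Then came Ctss with 35.2 ± 4.03, Ctsf with 28.6 ± 2.15, Ctsz with 21.7 ± 3.06, Ctsa with 18.3 ± 1.47 and Ctsl with 11.2 ± 1.01 CPM per kilobase. Ctsh with 2.14 ± 0.456 and Ctsc with 1.55 ± 0.332 CPM per kilobase were far lower, and Ctse was near 0. The neighbours Ctsz and Ctsa, and Ctsh and Ctsc, lay within about the sum of their SDs of each other, so their order is not firm. The order also depends on the gene lengths, from 1358 bases for Ctss to 6489 for Ctsl, whose derivation was not given. In CPM, Ctsa (77.3 to 94.2) and Ctsl (63.3 to 77.0) lay above Ctss (43.1 to 55.6) in the same libraries.

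Cathepsin transcripts rose in mutant cerebrum at P75. Of the 9 members that passed the filter on low counts, 6 rose and 0 fell, where 7.66% of the 17523 genes tested were called higher and 14.3% were called in either direction. The 4 tested myeloid-enriched members all rose (median log2 fold change 1.29), and 2 of 5 broadly expressed members rose (median 0.32); the median over all genes was 0.00. In bulk tissue, more cells of a type and more RNA per cell cannot be told apart.

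**Figure D1:**
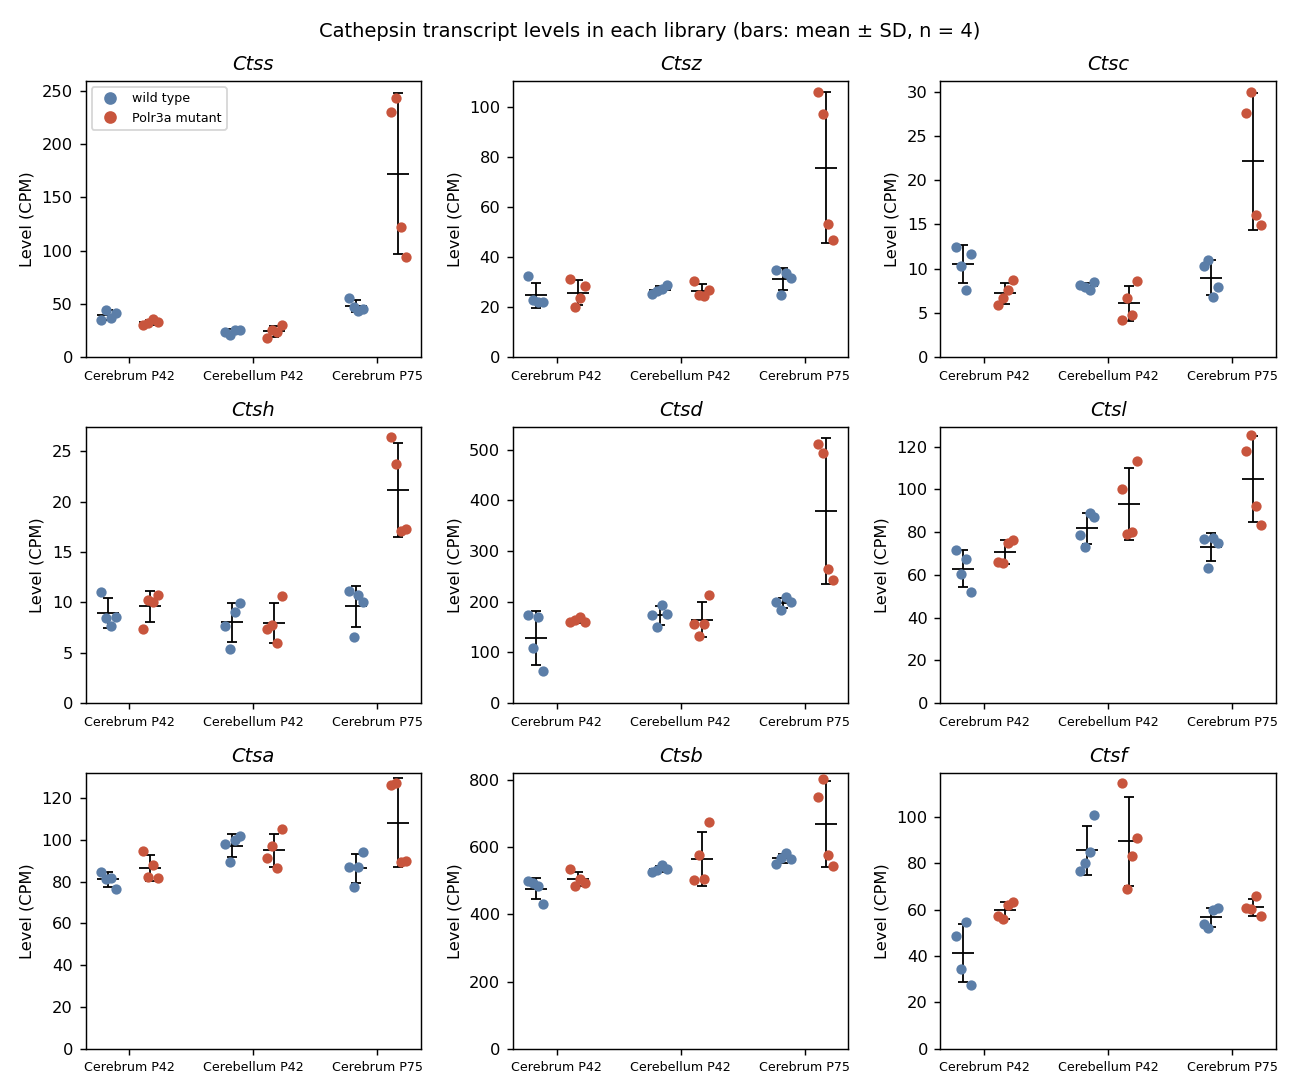
Level of 9 cathepsins in each of the 24 libraries (CPM, linear axis from 0), by tissue and age, for wild types and Polr3a mutants; black bars are the mean ± SD of 4 libraries. In cerebrum at P75, Ctss spans 93.7 to 243.3 CPM in mutants against 43.1 to 55.6 CPM in wild types, while Ctsf spans 57.0 to 65.7 CPM against 52.0 to 60.6 CPM.

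Ctss (ENSMUSG00000038642, chr3:95526786-95556403), the cathepsin of invariant chain processing, changed the most of the members. Its level at P75 was 229.8, 243.3, 122.1 and 93.7 CPM in mutant replicates 1 to 4 and 55.6, 46.7, 43.1 and 45.5 CPM in wild types. Every mutant lay above every wild type, and mutant replicates 1 and 2 lay well above 3 and 4. The log2 fold change was 1.85 ± 0.24 (3.61-fold, adjusted p = 1.8e-04).

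Ctsz (ENSMUSG00000016256, chr2:174427493-174439039), a carboxypeptidase, had 106.0, 97.0, 53.2 and 46.7 CPM in mutants and 35.0, 25.0, 33.5 and 31.6 CPM in wild types. It rose by a log2 fold change of 1.27 ± 0.22 (2.42-fold, adjusted p = 0.0017), and the same pair of mutants was high. Ctsc (ENSMUSG00000030560, chr7:88278085-88310888), the dipeptidyl peptidase, had 27.6, 29.9, 16.0 and 15.0 CPM in mutants and 10.3, 10.9, 6.84 and 7.96 CPM in wild types. Its groups did not overlap, with a log2 fold change of 1.30 ± 0.23 (2.47-fold, adjusted p = 0.0017). Ctsh (ENSMUSG00000032359, chr9:90054152-90076089), which acts mainly as an aminopeptidase, had 26.4, 23.7, 17.1 and 17.3 CPM in mutants and 6.60 to 11.1 CPM in wild types. It too showed no overlap, and rose by 1.13 ± 0.18 on the log2 scale (2.19-fold, adjusted p = 9.3e-04).

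Among broadly expressed members, Ctsd and Ctsl rose. Ctsd (ENSMUSG00000007891, chr7:142375911-142388038) encodes the main aspartic protease of the lysosome, whose loss causes a neuronal ceroid lipofuscinosis. It had 510.7, 493.4, 264.7 and 242.3 CPM in mutants and 199.6, 184.4, 208.5 and 198.6 CPM in wild types, and the log2 fold change was 0.93 ± 0.20 (1.91-fold, adjusted p = 0.0062). Wild types lay close together, mutants above them in 2 separate pairs. Ctsl (ENSMUSG00000021477, chr13:64359337-64370890), a cysteine endopeptidase, had 117.9, 125.6, 92.2 and 83.4 CPM in mutants and 76.8, 63.3, 77.0 and 74.7 CPM in wild types, and its log2 fold change was 0.52 ± 0.12 (1.44-fold, adjusted p = 0.0093).

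The other 3 broadly expressed members did not pass the test, and their groups overlapped. Ctsa (ENSMUSG00000017760, chr2:164832873-164841032), which also protects beta-galactosidase and neuraminidase in the lysosome, had 126.2, 126.9, 89.2 and 90.0 CPM in mutants and 86.9, 77.3, 86.9 and 94.2 CPM in wild types (log2 fold change 0.32 ± 0.12, adjusted p = 0.081). Ctsb (ENSMUSG00000021939, chr14:63122462-63145923), an endopeptidase and peptidyl dipeptidase, had 750.2, 802.6, 575.4 and 544.0 CPM in mutants and 550.7, 568.1, 582.0 and 565.0 CPM in wild types (0.24 ± 0.11, adjusted p = 0.162). In both genes only mutant replicates 1 and 2 lay above the wild types. Ctsf (ENSMUSG00000083282, chr19:4855129-4860912), a cysteine protease linked to an adult-onset ceroid lipofuscinosis, had 57.0 to 65.7 CPM in mutants and 52.0 to 60.6 CPM in wild types (0.11 ± 0.08, adjusted p = 0.408).

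Scaling and mutant replicates 1 and 2 bore on these values. With library size alone as the scaling, the median of all genes moved from 0.00 to 0.11 and 8 members were called, Ctsa (0.43, adjusted p = 0.0314) and Ctsb (0.35, adjusted p = 0.0486) added. With no filter on low counts, 8 members were called as well, Ctsa at 0.32 (adjusted p = 0.0033) and Ctsb at 0.23 (adjusted p = 0.0445). Ctsa also passed without mutant replicate 3 (0.41, adjusted p = 0.0326) or 4 (0.40, adjusted p = 0.0280), and Ctsb without mutant replicate 4 (0.33, adjusted p = 0.0381). Groups did not overlap for the 6 called members, where 20.0% of all genes tested did not overlap. Without mutant replicates 1 and 2, a choice made after the values were seen, 5 members were called, all higher. Then Ctss had a log2 fold change of 1.18 ± 0.12 (adjusted p = 2.2e-05), Ctsh 0.84 ± 0.18 (0.0148), Ctsc 0.79 ± 0.18 (0.0215), Ctsz 0.68 ± 0.13 (0.0061) and Ctsd 0.36 ± 0.08 (0.0174), with adjusted p in parentheses. Ctsl was no longer called (0.27 ± 0.10, adjusted p = 0.145).

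**Figure D2:**
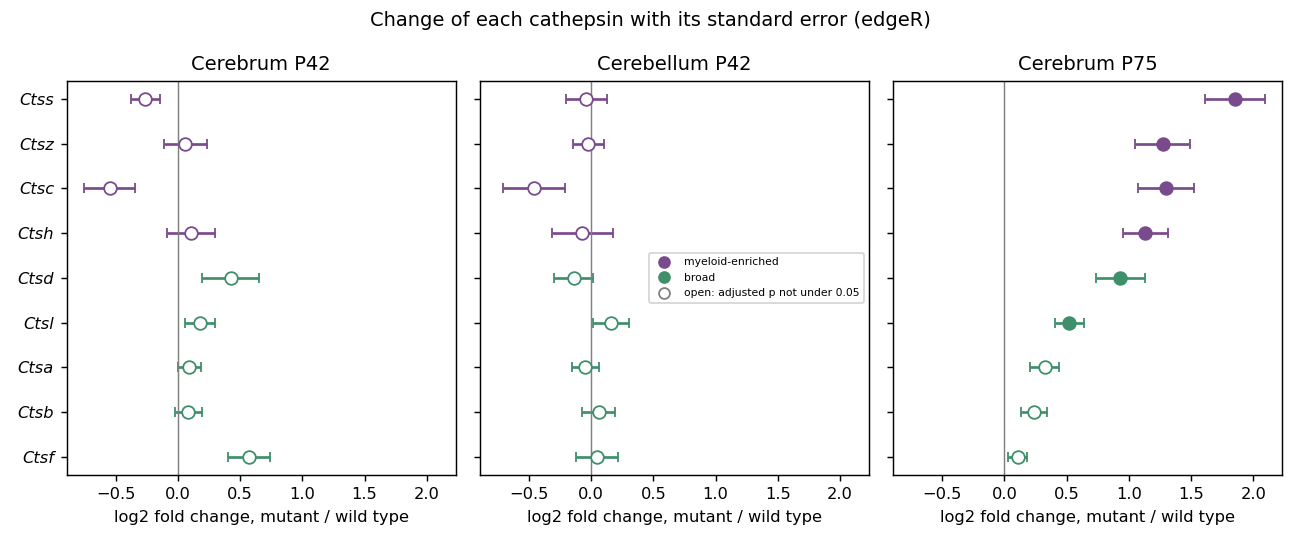
Log2 fold change of mutant over wild type with its standard error for 9 cathepsins in 3 comparisons (edgeR); filled points passed an adjusted p of 0.05, open points did not. In cerebrum at P75 the 4 myeloid-enriched members lie between 1.13 and 1.85 and the 5 broadly expressed members between 0.11 and 0.93.

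Transcripts of myeloid cells moved with these members. The counts below stand beside 7.66% of all genes tested called higher and 14.3% called in either direction. Of 17 pan-myeloid genes, among them C1qa, Csf1r, Spi1 and Tyrobp, 16 rose and 0 fell in cerebrum at P75 (median log2 fold change 1.42). Their summed level spanned 498.8 to 1098 CPM in mutants and 333.3 to 356.7 CPM in wild types, and none was at 0. The mean log2 level of the list was 5.34 and 5.40 in mutant replicates 1 and 2, 4.51 and 4.25 in replicates 3 and 4, and 3.60 to 3.69 in wild types, so that the mutants high in Ctss and Ctsd were also high here. Of 10 genes of homeostatic microglia, 4 rose and 0 fell, with a median of 0.52. Border macrophage markers had 0 of 7 called in edgeR, though 6 of the 7 log2 fold changes were positive (median 0.54). Their summed level was 45.3 to 54.5 CPM in mutants and 38.0 to 43.4 CPM in wild types, without overlap. Neutrophil and monocyte markers, of which 4 of 8 passed the filter, had 0 called. These summed to 2.69 to 5.79 CPM against 2.08 to 4.63 CPM. Of T cell markers, 2 of 9 were tested and 1 fell, Cd4, a gene that myeloid cells can also express, by 1.04 on the log2 scale (SE 0.29, adjusted p = 0.0292), and the markers summed to 3.95 to 6.74 CPM in mutants and 6.62 to 8.61 CPM in wild types, with Cd3d, Cd3g and Cd8a at 0 in every wild type library. Markers of some other cell types moved in the same comparison. Of 8 neuron markers 5 fell and 0 rose (median -0.35), with a sum of 4942 to 6088 CPM in mutants and 6867 to 7628 CPM in wild types. Of 8 endothelial markers 4 rose and 0 fell (median 0.35), with a sum of 346.9 to 380.6 CPM against 277.2 to 286.6 CPM. Astrocyte markers had 1 of 8 called, higher (sum 4111 to 4844 CPM against 4297 to 4676 CPM), which is near the share of all genes. Oligodendrocyte markers had 0 of 8 called by edgeR (sum 6015 to 6759 CPM against 6589 to 8003 CPM). What part the RNA of any of these cells has in the rise of the cathepsins was not tested.

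Set against the pan-myeloid level, the members kept the order of their log2 fold changes, since each library's reference is the same for every member. For each library the mean log2 level of the 17 genes was subtracted from the member's log2 level, with no test. Ctss was then 1.94 ± 0.15 in wild types and 2.44 ± 0.10 in mutants at P75 (log2 units), with all mutants above, as was the case for 0.942% of all genes tested. Ctsc, Ctsz and Ctsh differed by -0.02, -0.04 and -0.13 between mutants and wild types and overlapped, less than 1 SD of the wild types in each. Ctsd went from 3.98 ± 0.06 to 3.61 ± 0.07, a difference of -0.38, and Ctsl, Ctsa, Ctsb and Ctsf differed by -0.72, -0.92, -1.01 and -1.12. All mutants lay below all wild types in these 5 members, as they did for 81.3% of all genes, since the reference itself was higher in mutants. With the homeostatic microglia genes as the reference, every difference shifts upward by the same constant, because 1 value per library is subtracted from all members. The differences were then Ctss 1.29, Ctsc 0.77, Ctsz 0.74, Ctsh 0.66, Ctsd 0.41, Ctsl 0.065, Ctsa -0.13, Ctsb -0.22 and Ctsf -0.33.

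**Figure D3:**
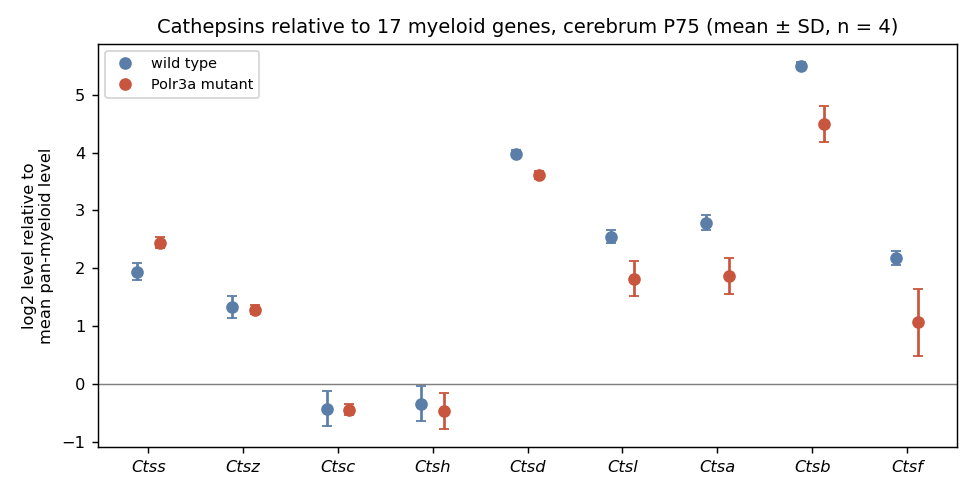
Level of 9 cathepsins relative to the mean of 17 pan-myeloid genes in cerebrum at P75 (log2 units; points are means and bars SDs of 4 libraries). Ctss is higher in mutants (2.44 against 1.94), Ctsz, Ctsc and Ctsh lie within the spread of the wild types, and the broadly expressed members are lower.

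The makeup of the cathepsin transcript pool differed between these groups. Myeloid-enriched members made up 20.4% ± 1.70 of the summed level per length of the 10 members in wild type cerebrum at P75 and 34.6% ± 4.0 in mutants. The shares were 22.9%, 19.7%, 19.3% and 19.8% in wild types and 37.8%, 38.0%, 32.8% and 29.8% in mutants, without overlap. Ctss alone went from 11.9% ± 1.34 to 23.2% ± 3.33, Ctsb from 31.6% ± 1.46 to 21.6% ± 3.01 and Ctsf from 9.66% ± 0.554 to 6.31% ± 2.03. Ctsd held its share, with 28.4% ± 0.549 and 29.9% ± 2.21. At P42 the myeloid-enriched share was 22.1% ± 3.91 in wild type and 17.6% ± 0.769 in mutant cerebrum, and 14.2% ± 0.204 and 13.9% ± 0.905 in cerebellum. These shares are descriptions and were not tested. They depend on the gene lengths: without division by length, the myeloid-enriched share at P75 was 9.07% in wild types and 17.6% in mutants.

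**Figure D4:**
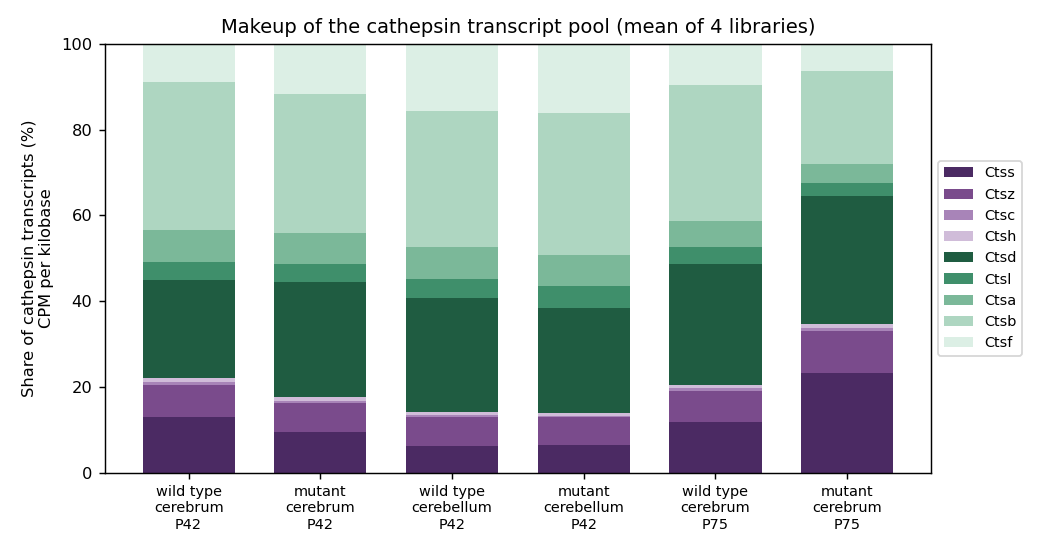
Share of each member in the summed cathepsin transcript level (percent of CPM per kilobase, mean of 4 libraries) in the 6 groups; purple shades are myeloid-enriched and green shades broadly expressed members. The purple part is 34.6% in mutant cerebrum at P75 and 13.9% to 22.1% in the other groups.

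The genotype effect in cerebrum differed between ages for 2 members. The difference between the log2 fold change at P75 and that at P42 was tested over 16 libraries with sex as a covariate, and 2 of 9 members were called, both higher at P75, where 1.04% of the 19273 genes tested were called higher and 1.36% in either direction. It was 2.12 ± 0.32 for Ctss (adjusted p = 0.0024) and 1.85 ± 0.33 for Ctsc (adjusted p = 0.0083). Ctsz (1.22 ± 0.32, adjusted p = 0.077) and Ctsh (1.03 ± 0.28, adjusted p = 0.080) missed the threshold with edgeR and passed it with DESeq2 (adjusted p = 0.0144 and 0.0175), and Ctsz passed in edgeR without mutant P42 replicate 1 (adjusted p = 0.0363) or mutant P75 replicate 4 (adjusted p = 0.0239). In males alone, 0 members were called by edgeR, with Ctss at 1.98 (adjusted p = 0.0523) and Ctsc at 1.88 (adjusted p = 0.0745). In that fit 6 members had an unadjusted p under 0.05, as did 2255 of 19898 genes. Without mutant P75 replicates 1 and 2, Ctss alone was called (1.42 ± 0.18, adjusted p = 0.0019), and Ctsc was not (1.31 ± 0.30, adjusted p = 0.100).

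In cerebrum at P42, 14 days after induction, 0 of 9 members were called by edgeR, as were 0.0165% of the 18205 genes tested. DESeq2 called 0 members as well. By edgeR, 3 members had an unadjusted p under 0.05 (Ctsf, Ctsc and Ctss), as did 2299 of the 18205 genes tested. Even Esr1, whose groups did not overlap, was not called (log2 fold change 3.56 ± 0.44, adjusted p = 0.0716). A count of 0 called is therefore not evidence of no change. Ctsc had 5.84, 6.72, 7.56 and 8.71 CPM in mutants and 12.5, 10.3, 7.62 and 11.7 CPM in wild types (log2 fold change -0.55 ± 0.21, adjusted p = 0.371). Ctss had 30.1 to 35.6 CPM in mutants and 34.7 to 44.6 CPM in wild types (-0.26 ± 0.12, adjusted p = 0.394). Both were thus lower on average, with overlap, in the direction opposite to that at P75. The 17 pan-myeloid genes had a median log2 fold change of -0.33 with 0 called, and their sum was 240.3 to 260.1 CPM in mutants and 275.5 to 325.0 CPM in wild types.

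Ctsf was the sole member whose groups did not overlap in cerebrum at P42, where 6.41% of genes did not overlap. It had 57.4, 56.0, 62.0 and 63.2 CPM in mutants and 48.8, 34.2, 54.8 and 27.5 CPM in wild types (log2 fold change 0.57 ± 0.17, adjusted p = 0.352). Ctsd had 158.8 to 169.1 CPM in mutants and 173.2, 109.2, 169.3 and 62.4 CPM in wild types (0.43 ± 0.23, adjusted p = 0.444). In both genes wild type replicates 2 and 4, the females of that group, were the low ones, while female and male mutants were alike. In males alone, Ctsd had a log2 fold change of -0.056 and Ctsf of 0.20. Markers of deep brain regions such as thalamus and hypothalamus were higher in the same mutants (12 of 12 positive, median 1.75, 0 called; summed level 681.1 to 1173 CPM against 186.2 to 409.1 CPM). Other lists shifted too, with 0 called. Oligodendrocyte markers had 7 of 8 positive (median 0.58, summed level 8115 to 11930 CPM in mutants against 5919 to 8561 CPM). Choroid plexus markers had 7 of 8 negative (median -1.11). The part of dissection, cell makeup or sex in the levels of Ctsf and Ctsd was not tested. The other 5 members, Ctsa, Ctsb, Ctsh, Ctsl and Ctsz, had log2 fold changes of 0.06 to 0.18, none with an adjusted p under 0.52.

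In cerebellum at P42, 0 of 9 members were called by edgeR or DESeq2, where edgeR called 0.0114% of 17616 genes. An unadjusted p under 0.05 was found for 0 members and 819 genes by edgeR. The log2 fold changes ran from -0.46 ± 0.25 for Ctsc (adjusted p = 0.967) to 0.16 ± 0.15 for Ctsl (adjusted p = 0.979). Ctsc had 4.17, 6.73, 4.82 and 8.63 CPM in mutants and 8.16, 7.98, 7.61 and 8.46 CPM in wild types, so that 3 mutants lay below all wild types and the remaining mutant above them. Ctss had 17.6, 25.7, 23.9 and 30.2 CPM in mutants and 24.1, 20.7, 25.6 and 25.3 CPM in wild types (-0.04 ± 0.17, adjusted p = 0.9995). The groups overlapped for all 9 members, while 3.43% of genes showed no overlap. The difference between the genotype effects of the tissues was tested over 16 libraries. With edgeR, 0 members and 0% of 19614 genes were called, and with DESeq2 0 members. By edgeR, 0 members and 1213 genes had an unadjusted p under 0.05.

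Without the mutation, the tissues differed in 2 members. Comparing wild type cerebellum with wild type cerebrum at P42, edgeR called 30.5% of 17964 genes, 14.1% higher and 16.4% lower in cerebellum, so that 2 of 9 members is no more than the share of all genes. Ctsf was higher in cerebellum, with 76.5, 79.9, 84.9 and 100.5 CPM against 48.8, 34.2, 54.8 and 27.5 CPM in cerebrum (log2 fold change 0.94 ± 0.20, adjusted p = 0.0045). Every cerebellum lay above every cerebrum, and the difference was 0.55 (adjusted p = 0.0188) without wild type cerebellum replicate 4 and 0.56 (adjusted p = 0.0071) in males alone. Ctss was lower in cerebellum, with 20.7 to 25.6 CPM against 34.7 to 44.6 CPM (-0.75 ± 0.13, adjusted p = 0.0012), and pan-myeloid genes had a median of -1.10 in the same comparison. The other myeloid-enriched members tested were not called. Ctsz had a log2 fold change of 0.02 ± 0.16 (adjusted p = 0.947), Ctsh of -0.22 ± 0.22 (adjusted p = 0.511) and Ctsc of -0.44 ± 0.19 (adjusted p = 0.112).

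Genes of protease inhibitors and genes that act on cathepsins or beside them in the lysosome were read from lists in the P75 cerebrum comparison. Of all genes tested in it, 7.66% were called higher and 14.3% in either direction. Among 8 genes of cystatins and serpins, 2 rose and 0 fell. Which of these act on the members described here was not examined. Cst7, which encodes cystatin F, an inhibitor of cathepsin C made by immune cells, rose by 5.91 ± 0.80 on the log2 scale (adjusted p = 2.5e-04). It had 21.15, 23.91, 4.54 and 3.38 CPM in mutants and at most 0.63 CPM in wild types. Wild type counts were 10, 1, 2 and 1, so Cst7 passed the filter through the mutants and the size of its change is not firm. Serpina3n, a serpin gene of reactive astrocytes, rose by 2.33 ± 0.35 (adjusted p = 6.7e-04). Cst3, the gene of the abundant secreted cystatin C, was at 0.24 ± 0.11 (adjusted p = 0.171), and Cstb, a cytosolic inhibitor, at 0.25 ± 0.14 (adjusted p = 0.256). Among 10 genes of cathepsin maturation and sorting, 2 rose and 1 fell. These were Grn, the progranulin gene (1.23 ± 0.19, adjusted p = 9.1e-04), Lgmn, the gene of a protease that processes cathepsins (0.56 ± 0.12, adjusted p = 0.0055), and Sort1, the sortilin gene, which fell by 0.27 on the log2 scale (SE 0.07, adjusted p = 0.0154). The mannose phosphate receptor genes M6pr (0.18 ± 0.07, adjusted p = 0.0995) and Igf2r (0.10 ± 0.07, adjusted p = 0.392) were not called.

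Other lysosomal genes were read in the same comparison, against the same shares of all genes called (7.66% higher, 14.3% in either direction). Of 29 other lysosomal hydrolases and related proteins, 5 rose and 1 fell, with a median of 0.13. Gusb, the beta-glucuronidase gene, rose by 0.79 ± 0.15 (adjusted p = 0.0032) and Man2b1, an alpha-mannosidase gene, by 0.57 ± 0.11 (adjusted p = 0.0038). Of 16 lysosomal membrane genes, 2 rose and 1 fell (median 0.07). Of 16 tested subunit genes of the vacuolar proton pump that acidifies the lysosome, 1 rose and 1 fell (median -0.13). Of these, 14 had negative and 2 positive log2 fold changes. The summed level of all 17 listed pump genes was 3761 to 4174 CPM in mutants and 4317 to 4586 CPM in wild types. Among the MiT/TFE factors that bind CLEAR elements, Tfe3 rose by 0.29 ± 0.08 (adjusted p = 0.0307), whereas Tfeb (0.18 ± 0.12, adjusted p = 0.366) and Mitf (0.11 ± 0.18, adjusted p = 0.744) were not called. Of 8 tested genes of MHC class II presentation, 2 rose: H2-DMb1 (1.20 ± 0.34, adjusted p = 0.0291) and Cd74, the invariant chain gene (0.78 ± 0.24, adjusted p = 0.0414). All 20 of 20 interferon-stimulated genes rose, with a median of 3.73. No list of these was compared with the others by a test.

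Within groups, members followed different partners. Levels were compared as log2 CPM after the mean of each of the 6 groups was subtracted, over 24 libraries, as a description; depth was not held equal. The correlation (Pearson's r) with the mean pan-myeloid level was 0.886 for Ctss, 0.807 for Ctsb, 0.767 for Ctsa, 0.678 for Ctsz, 0.664 for Ctsc, 0.569 for Ctsd, 0.479 for Ctsl, 0.466 for Ctsh and -0.138 for Ctsf. The 4 mutants of cerebrum at P75 made up 74.9% of the summed squares of the pan-myeloid level, so these values mostly restate the distance of mutant replicates 1 and 2 from 3 and 4. Over the other 20 libraries, a choice made after the values were seen, r was 0.579 for Ctss, 0.465 for Ctsb, 0.347 for Ctsc, 0.315 for Ctsa, 0.259 for Ctsh, 0.138 for Ctsd, 0.016 for Ctsz, -0.054 for Ctsl and -0.297 for Ctsf. The classes did not separate in either order: Ctsb and Ctsa, classed as broadly expressed, lay above Ctsz and Ctsh, classed as myeloid-enriched, in both. The genes most like each member, given next, were chosen over all 24 libraries and share the limit set by the P75 mutants. Among 16267 genes, Ctss was most like Mpeg1, a macrophage pore protein gene (r = 0.889), then Naip6 (0.868) and Lcp1 (0.861), and Ctsc was most like Tlr3 (0.867), Sgk1 (0.849) and Rcsd1 (0.822). Ctsa was most like Lgals3bp (0.884), C1qb (0.875) and Vav1 (0.862), and Ctsb was most like Rhou (0.881), C1qb (0.868) and Axl (0.867). Ctsd was most like Ifi35 (0.922), Aspg (0.910) and C1qc (0.883), and Ctsl was most like Capg (0.853), Samd11 (0.841) and Ctsd (0.836). Ctsz was most like Ms4a6b (0.802), H2-T23 (0.799) and Hist1h3g (0.795), Ctsh was most like Tgfb1 (0.828), Tspo (0.786) and Eef1b2 (0.784), and Ctsf was most like Zfp385a (0.926).

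**Figure D5:**
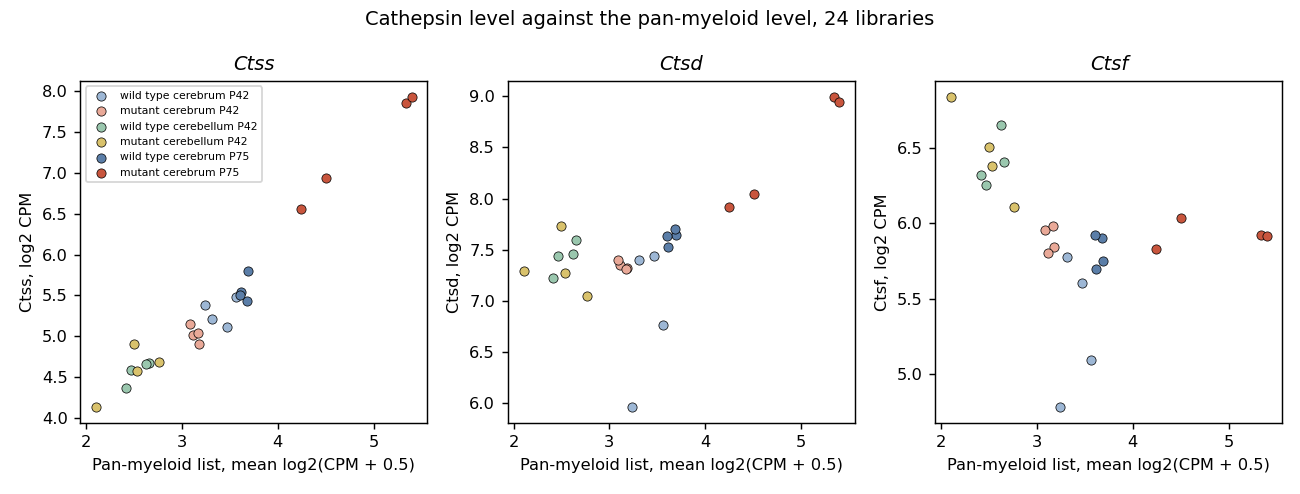
Level of Ctss, Ctsd and Ctsf (log2 CPM) against the mean level of 17 pan-myeloid genes (log2 of CPM with 0.5 added) in 24 libraries, coloured by group. P75 mutants have a pan-myeloid level of 4.25 to 5.40 and lie highest in Ctss and Ctsd but not in Ctsf, and 2 wild type cerebra at P42 have low Ctsd and Ctsf.

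Ctse (ENSMUSG00000004552, chr1:131638306-131675505), an aspartic protease of immune and epithelial cells, was not detectable at a level that could be compared. Its counts ran from 0 to 9 per library, and 13 of 24 libraries held none, so that it passed the filter in no comparison. The 9 counts were all in replicate 2 of wild type cerebellum. Among the cathepsin genes outside the family as defined here, Ctso had a log2 fold change of 0.33 and Ctsk of 0.15 in cerebrum at P75, with 0 of 2 tested genes called by edgeR. Ctsg, a neutrophil granule protease gene despite its name, and Ctsw, of cytotoxic lymphocytes, did not pass the filter there. Ctsk lies beside Ctss on chromosome 3.

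The spans of some members overlap another gene, and the tables do not say whether counting used strand. Ctsz and the opposite-strand gene Nelfcd share 10 bases, and Nelfcd had a log2 fold change of 0.05 ± 0.08 in cerebrum at P75 (adjusted p = 0.758). Ctsa shares 1515 bases with Pltp (0.14 ± 0.10, adjusted p = 0.4003) and 584 bases with Neurl2 (-0.08 ± 0.27, adjusted p = 0.874), and Ctsb shares 774 bases with Fdft1, which fell by 0.62 on the log2 scale (SE 0.08, adjusted p = 1.8e-04). Reads from the shared bases cannot be told apart, so the levels of Ctsa and Ctsb are uncertain by that part. Ctsd, Ctsl, Ctsc and Ctss overlap genes with at most 4 counts in any library. Ctsd shares 6757 bases on the same strand with the protein-coding gene Gm49369, which had 0 counts. Reads that match both genes may have been left out by the counter, which was not named. The level of Ctsd may therefore be understated.

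The authors' deposited table for cerebrum at P75 gave the same 6 members an adjusted p under 0.05: Ctss (7.1e-07), Ctsh (7.5e-08), Ctsc (6.2e-07), Ctsz (4.6e-04), Ctsl (8.2e-04) and Ctsd (0.0077). In the authors' deposited table Ctsa had 0.0612, Ctsb 0.152 and Ctsf 0.473. For cerebrum at P42 the authors' deposited table gave its smallest adjusted p among members to Ctsc (0.203, log2 fold change -0.55), and for cerebellum at P42 the authors' deposited table gave every member 0.9999.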

How the data were processed

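Messenger RNA of 24 libraries from 6 groups of 4 was analysed. The authors deposited read counts per gene as whole numbers, without scaling, in a table per age. The submitters' processing notes name HISAT2, DESeq2 and mm10, without versions; the read counter, its use of strand and the annotation were not given in the sources used here. Per the file headers, the authors' comparison tables hold a mean signal (baseMean), log2 fold changes with standard errors, a score that is the Wald statistic, and p-values. They served for comparison only.

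Counts were tested in R 4.3.3 with edgeR 4.0.16, using filterByExpr, TMM scaling and its quasi-likelihood test (two-sided), adjusting for sex at P42, and an adjusted p under 0.05 over all genes. An age effect alone was not tested, because the ages are in separate tables. Log2 levels used 0.5 CPM as a pseudocount, and lengths are those of the tables. Alternatives included DESeq2 1.42.0, other scalings and filters, and leaving out libraries. Scripts were tested on simulated data. Promoters are from RefSeq.

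The members and gene lists were chosen with earlier results of these data known. All members were described in every comparison. Of each list, counts, the median and at most 4 genes with the smallest p are given. Any gene of the cystatin and serpin list and of the other cathepsins could be named besides. M6pr, Igf2r, Tfeb and Mitf were named for their roles after their values were seen. Likeness names the 3 genes with the highest r per member. Some genes that these rules name are not reported here.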

Additional observations from a re-analysis of the deposited data

Results flagged for a closer look

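Among 54 groups of 4 libraries checked for a library far from the others, where chance gives about 1 in 20, 2 stood out. Ctsl had 63.3 CPM in wild type cerebrum at P75, replicate 2, below 74.7 to 77.0 CPM in the other wild types. Ctsz had 32.3 CPM in wild type cerebrum at P42, replicate 1, above 22.1 to 22.7 CPM in the others.

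The genotype effect in cerebrum differed between P75 and P42 for 2 members by edgeR's interaction test. The difference in log2 fold change was 2.12 for Ctss (adjusted p = 0.0024; over the alternatives 1.42 to 2.29) and 1.85 for Ctsc (adjusted p = 0.0083; over the alternatives 1.31 to 2.05). Time since tamoxifen, age and sequencing table change together between P42 and P75 and cannot be told apart. Sex makeup differed as well, since every P75 library was male and each P42 cerebrum group held both sexes. In males alone, with fewer libraries, 0 members were called by edgeR.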

How the results depend on the processing

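Of the fitted log2 fold changes of members under settings other than leaving out 1 library, 474 kept their direction and side of the threshold, 24 changed sign, 10 passed newly and 5 no longer passed. The number of genes called moved by over 1.5 times in these cases. In cerebrum at P75 it was 2502, and 1086 at an adjusted p under 0.01 and 774 without mutant replicates 1 and 2. In cerebrum at P42 it was 3, and 233 with DESeq2, 1312 with no filter, 8 with the replicate block, and 0 with library size only, a filter of 1 CPM in 4 libraries, an adjusted p under 0.01, no sex term, males only, or without mutant replicates 3 and 4. In cerebellum it was 2, and 41 with DESeq2, 153 with no filter and 1 with the replicate block, an adjusted p under 0.01, no sex term or males only. For the age difference it was 263, and 670 with DESeq2, 1176 with no filter, 100 at an adjusted p under 0.01, 135 in males only, 132 without mutant P42 replicates 3 and 4 and 81 without mutant P75 replicates 1 and 2. For the tissue difference it was 0, and 8 with DESeq2 and 279 with no filter. For wild type tissues it was 5472, and 3311 at an adjusted p under 0.01 and 2658 with the replicate block. The number of members called moved to 1 with no filter in cerebrum at P42 (Ctsf), to 4 with DESeq2 or no filter, 0 in males only and 1 without mutant P75 replicates 1 and 2 for the age difference, and to 1 with the replicate block for wild type tissues. With the homeostatic reference, the level differences were 1.29 (Ctss), 0.77 (Ctsc), 0.74 (Ctsz), 0.66 (Ctsh), 0.41 (Ctsd), 0.065 (Ctsl), -0.13 (Ctsa), -0.22 (Ctsb) and -0.33 (Ctsf). Without division by length, the myeloid-enriched share was 9.07% in wild types and 17.6% in mutants. The causes were not tested.

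Sign changes concerned log2 fold changes that did not pass the test as reported; of these, Ctsb at P75 passed under some other settings. In males only, Ctsd (-0.056) and Ctsh (-0.098) reversed in cerebrum at P42, Ctsh (0.031) and Ctsz (0.063) in cerebellum, Ctsb (-0.058), Ctsh (0.14) and Ctsz (0.063) in the tissue difference, and Ctsd (-0.071) and Ctsz (-0.13) between wild type tissues. Without mutant P42 replicates 3 and 4, Ctsh (-0.028) reversed in cerebrum and Ctsb (-0.018) in the tissue difference. Without mutant P75 replicates 1 and 2, Ctsb (-0.013) reversed at P75, and Ctsa (-0.063), Ctsb (-0.13) and Ctsd (-0.092) in the age difference. With no sex term, Ctss (0.027) reversed in cerebellum and Ctsb (-0.001006) in the tissue difference. Library size only reversed Ctsb (-0.081) and Ctsl (-0.058), and no filter Ctsb (-0.019), in the tissue difference.

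Replicate numbers are shared between groups. Same-numbered libraries deviated together with correlations of 0.0509 to 0.219 in cerebrum at P75, 0.0119 to 0.321 in cerebrum at P42, -0.434 to 0.0966 in cerebellum and -0.294 to 0.203 between wild type tissues, so the numbers were not taken as pairs. With the replicate block, 3537 genes and 6 members were called at P75, and Ctsf was lost between wild type tissues (0.96, adjusted p = 0.0663). In cerebellum the block reversed Ctsa (0.021), Ctsh (0.18), Ctss (0.042) and Ctsz (0.016).

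Leaving out each library in turn, members called stayed at 6 to 8 in cerebrum at P75, 0 in each P42 comparison and in the tissue difference, and 2 to 3 for the age difference and wild type tissues (Ctsc joined without wild type cerebrum replicate 3, -0.62, adjusted p = 0.0414). Genes called ranged from 1356 to 2783 at P75 (1356 without mutant replicate 1, 1634 without wild type replicate 4), 0 to 11 in cerebrum at P42, 1 to 2 in cerebellum, 124 to 1169 for the age difference (124 without mutant P75 replicate 1, 1169 without mutant P42 replicate 1) and 0 to 2 for the tissue difference (2 without wild type cerebrum replicate 1). Log2 fold changes that changed sign ranged in cerebellum from -0.013 to 0.12 (Ctsb), -0.22 to 0.18 (Ctsf), -0.19 to 0.052 (Ctsh), -0.17 to 0.11 (Ctss) and -0.13 to 0.062 (Ctsz), and from -0.063 to 0.19 for Ctsz in cerebrum at P42. In the tissue difference they ranged from -0.090 to 0.071 (Ctsb), -0.066 to 0.25 (Ctsc), -0.086 to 0.11 (Ctsl) and -0.20 to 0.050 (Ctsz), and between wild type tissues from -0.076 to 0.41 (Ctsd) and -0.13 to 0.22 (Ctsz). Depth limits Ctse, whose counts reached at most 9.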
